A study of Mus musculus with 7 samples.

Results

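The genes described here encode the initiation factors (eIF1 to eIF6) and elongation factors (eEF1 and eEF2) of cytosolic protein synthesis, with the kinases, inhibitors and methyltransferases that share their names. They were chosen by gene symbol, as every symbol of the array annotation that begins with Eif1 to Eif6 or with Eef1 or Eef2, except Eif2s3x and Eif2s3y, a rule that uses no measured value. This gave 59 of the 19498 genes named on the array, each represented by 1 transcript cluster. Sorted β-cells of 2-week-old mice were measured on Affymetrix Clariom S arrays, 3 of WT and 4 of Raptor knockout (KO) cells. KO mice (Raptor-/-, RIP-Cre, Rosa26GFP) lacked Raptor where the rat insulin promoter had driven Cre, and their WT littermates (Raptor+/+, RIP-Cre, Rosa26GFP) carried the same Cre and reporter. All mice are given a C57BL/6 background in the labels, while the methods give the RIP-Cre line a mixed one, and every array was made from a pool of several mice that shared a genotype. The question for these genes was whether loss of Raptor changed the transcript levels of the translation machinery before diabetes began. Signals are given as log2 values that were quantile normalized here, and each difference is the KO mean minus the WT mean. The error is the SD over the arrays of a group (3 WT, 4 KO) or, where stated, the SE of a difference.

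A round of initiation begins when eIF2 brings the initiator tRNA to the small ribosomal subunit, which eIF1, eIF1A and eIF3 prepare for scanning. The eIF4 factors recruit that subunit to the capped end of the mRNA, eIF5B joins the large subunit, and eEF1A and eEF2 then drive elongation. mTORC1, of which Raptor is the defining subunit, phosphorylates the 4E-BP proteins so that they release the cap-binding factor eIF4E, and it restrains the kinase of eEF2. mTORC1 also favours translation of mRNAs that begin with a C and a run of pyrimidines, among them many that encode translation factors. These controls act on proteins and on translation, while an array measures transcript levels. β-Cells make much insulin and depend on the eIF2 kinase PERK.

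Among the genes of the family with a known start, only Eif3f was one whose RefSeq start (build GRCm38.p6) had a C followed by 4 or more pyrimidines. The 25 bases around it are shown with that run in capitals, on the plus strand of chr7:108934410-108934434.
Eif3f: gctctCTCTCTTTCTCggcaagatg
Promoter windows of 250 bases before and 50 after the start were matched for 44 of the 59 genes. A pyrimidine start was found in 1 of the 44, or 2.27%, against 3.01% of all 27025 genes with a window. An annotated start can lie some bases away from the start used in β-cells, so a missing match says only that these letters are not at this position. The annotated start of Eef1a1, for example, was a T within a run of pyrimidines and was not counted. Eif2ak4 and Eif2b5 each had a start in a run of 4 pyrimidines that included the C, just short of the rule.

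The letters CACGTG, an E box, which reads the same on both strands, were found in 12 of the 44 genes, or 27.3%. Of all genes with a window 8.09% held it, as did 11.4% of those with a mean signal above the median of the array. Base composition was not matched between these sets. The stretches of the 8 genes with an E box within 100 bases before a start are shown, with the E box in capitals, because they include the cap-binding factor and eEF2.
Eef2 (chr10:81176576-81176605, plus strand): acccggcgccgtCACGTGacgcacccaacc
Eef2k (chr7:120842788-120842817, plus strand): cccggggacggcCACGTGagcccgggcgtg
Eif1b (chr9:120492570-120492599, plus strand): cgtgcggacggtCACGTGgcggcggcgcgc
Eif3f (chr7:108934335-108934364, plus strand): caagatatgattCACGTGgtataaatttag
Eif3k (chr7:28981915-28981944, minus strand): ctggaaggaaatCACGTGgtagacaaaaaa
Eif4e (chr3:138527192-138527221, plus strand): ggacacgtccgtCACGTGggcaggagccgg
Eif4h (chr5:134639488-134639517, minus strand): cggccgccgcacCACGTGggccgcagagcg
Eif5a (chr11:69921443-69921472, minus strand): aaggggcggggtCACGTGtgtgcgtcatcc
The distance from the E box to the start ran from 24 bases in Eif1b to 96 in Eif4h. Eif4e and Eif5a2 each held a pair of E boxes in a window. The 12 genes differed by a median of 0.24 between KO and WT (11 above, 1 below), and the 44 genes with a window by 0.19 (34 above, 10 below). The element TGATGNAA, searched on both strands as a form of the site bound by ATF4 with C/EBP proteins, was in 1 of the 44 (Eef2k), or 2.27%, against 4.51% of all genes.

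Rptor itself did not check the labels, since its mean was 0.45 above WT in KO and its highest signal (8.54) was on the array labelled KO replicate 4. Where its probes lie relative to the deleted exons was not known here, and directions follow the labels. The glucose transporter gene Slc2a2 was 16.64, 16.29 and 16.19 in WT and 15.43, 14.67, 14.36 and 13.25 in KO, with KO replicate 4 the lowest. The study named this gene from these arrays and its RNA-seq of older mice together, which limits it as a check. It also reported the gene or its protein lower in older KO mice by qRT-PCR and staining. The transcript was lower in a cultured cell line with Raptor silenced as well. Of 13 β-cell markers 12 were measured, with a mean signal of 14.61 to 14.93 in WT and 13.80 to 14.77 in KO, although Mafa, a transcription factor of mature β-cells, stood at 3.44 to 3.80. Ins2 stood at the top of the scale (19.91) on every array, and Iapp on all but KO replicate 3 (19.35). The mean was lower in KO for 8 markers and higher for 3. Slc2a2 and Slc30a8 (-0.96, with overlap) were lower with an unadjusted p below 0.05 in limma, as were 1.17% of all transcript clusters. Markers of α-cells (5 of 8 measured) averaged 11.67 to 12.05 in WT and 11.55 to 12.09 in KO. The glucagon gene Gcg stood at the top of the scale (19.91) on every array and could not show a difference, while Irx1 was dim (3.27 to 4.11). Markers of δ, PP and ε cells (5 measured) averaged 11.30 to 13.65 in WT and 12.76 to 14.58 in KO. All 5 had the higher mean in KO, and none had an unadjusted p below 0.05 in limma. Acinar markers (18 of 21 measured) spread widely, from 7.20 to 14.29 in WT and from 8.61 to 15.27 in KO. WT replicate 3, KO replicate 3 and KO replicate 4 correlated less with the other arrays (median 0.924 to 0.937) than the remaining 4 did (0.954 to 0.961). The methods describe male animals, but Y-linked transcripts were low on WT replicate 3 and the array labelled KO replicate 4. The demethylase gene Kdm5d was 8.83, 8.02 and 4.11 in WT and 9.16, 8.29, 7.58 and 3.64 in KO, and Uty had the same low arrays. Without both arrays a single gene of the 59, Eif4h, had an unadjusted p below 0.05 in limma, at 0.0191 for a difference of 1.31. This was 1.69% of the genes, against 1.62% of all transcript clusters. On those arrays 8 genes, or 13.6%, did not overlap, against 15.8% of all transcript clusters, and the median difference was 0.14. This fit of 5 arrays was chosen after the data had been seen.

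No translation factor passed the test of KO against WT over all 7 arrays. Of the 59 genes 0 had an unadjusted p below 0.05 in limma, where 2.18% of all 22198 transcript clusters did (1.01% higher and 1.17% lower in KO), and all had an adjusted p of 1. Across the array 0% passed an adjusted p of 0.05. The methods' t-test also gave 0 of 59. The smallest p belonged to Eif3b (0.0512), Eif4h (0.0734) and Eif3c (0.088), whose differences exceeded the SD of either group, and Eif3b and Eif4h had an unadjusted p below 0.05 once arrays were blocked by replicate number. The KO mean was the higher for 39 genes, or 66.1%, against 50.4% of all transcript clusters, and the lower for 20, or 33.9%, against 49.6%. Their median difference was 0.16, with quartiles of -0.16 and 0.42, and the median over all transcript clusters was 0. Differences ran from -1.27 for Eef1d to 1.30 for Eif6. In 12 genes, or 20.3%, the means were at least 1.5-fold apart, against 14.1% of all transcript clusters, and 9 of the 12 were higher in KO. All transcript clusters include dim ones and had a smaller median SD within groups (0.433, against 0.589 for these genes), so the 2 shares are not like for like. None of the 12 stayed at 1.5-fold when each array in turn was left out.

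The precision of the arrays set how much could be read. The median SD within groups was 0.589 for these genes, close to the 0.618 of all transcript clusters with a mean signal above the median. The 95% interval of the difference lay within 2-fold either way for 17 of the 59 genes and reached past 2-fold for the other 42. Only Eif3a, the scaffold of eIF3, and Eif4e1b, a germ-cell relative of eIF4E, had intervals within 1.5-fold. Eif3a differed by 0.04, with an interval from -0.45 to 0.53. Eif4e1b was near the bottom of the array, with 3.22 to 3.52 on the 7 arrays. In all, 52 of the 59 genes had a mean signal above the median of the array, and their median difference was 0.18 (35 above, 16 below, 1 level). Over the 11099 transcript clusters with such a signal the median was 0 (5428 above, 5546 below). The shift was not tested.

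**Figure D1:**
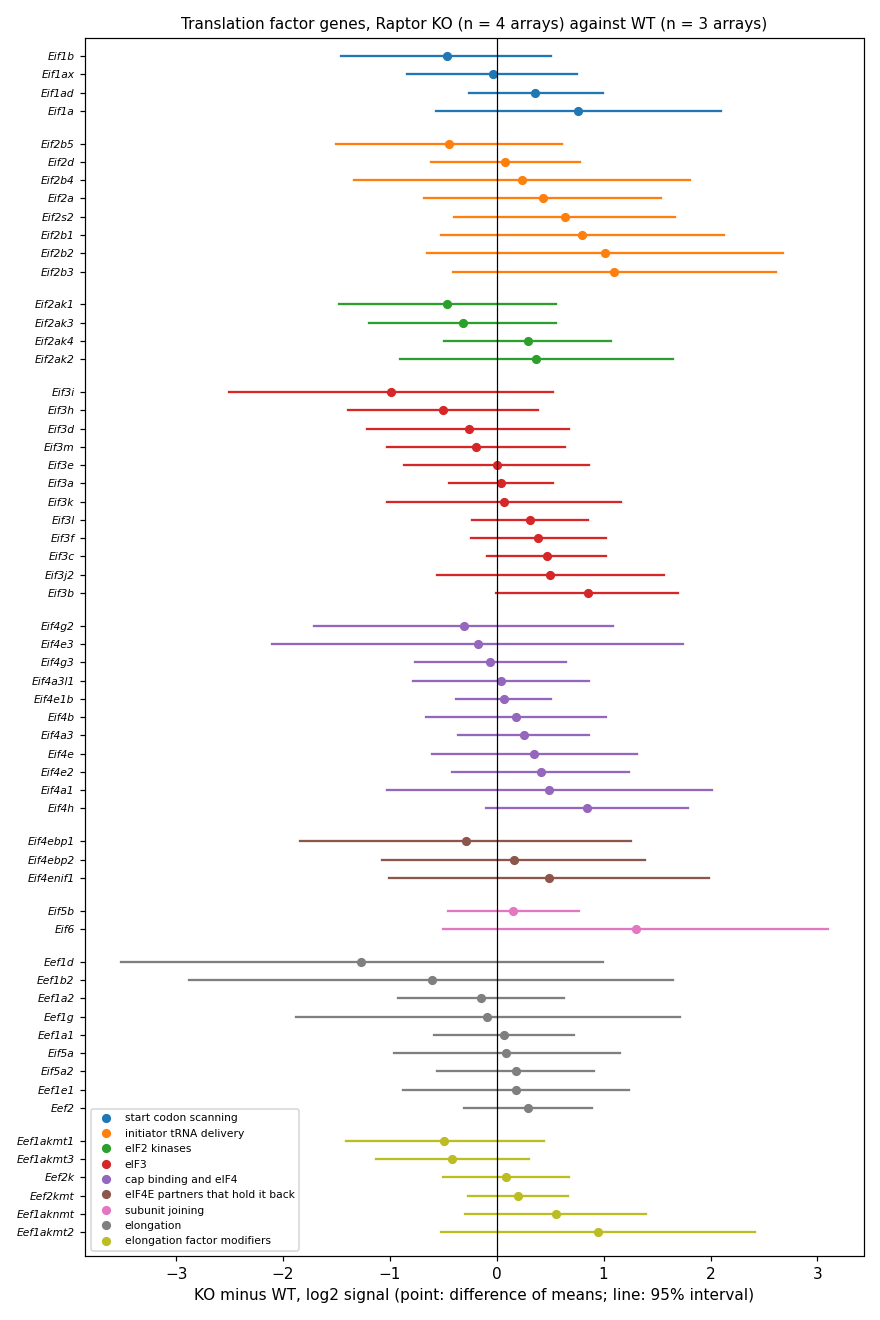
Difference between KO (4 arrays) and WT (3 arrays) for each of the 59 genes, in log2 signal on the horizontal axis, ordered within roles that are marked by colour. Points are differences of means and lines are 95% intervals from limma; every interval crosses 0, with Eif3b (-0.01 to 1.70) and Eif3c (-0.09 to 1.02) nearest to leaving it.

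Among the 12 measured subunits of eIF3, the large complex that binds the small ribosomal subunit, 7 had the higher mean in KO, 4 the lower and 1 was level, and their median difference was 0.05. Eif3b, a core subunit, was 7.73, 7.15 and 8.19 on WT replicates 1 to 3 and 8.16, 8.03, 9.07 and 8.89 on KO replicates 1 to 4. KO replicates 1 and 2 lay below the highest WT array, yet each was above the WT array of its own number. The difference was 0.85 ± 0.37 (SE), or 1.80-fold higher in KO, and 6 of 35 divisions of the arrays were as extreme in the exact permutation test (p = 0.171). Eif3c, another core subunit, was 13.34, 13.41 and 13.28 in WT and 13.54, 13.60, 14.28 and 13.82 in KO. It was the only gene of the 59 in which KO and WT arrays did not overlap, or 1.69%, while 3.93% of all transcript clusters had no overlap (1.98% with KO above and 1.95% with KO below). Its difference was 0.47 ± 0.24 (SE), with p = 0.0857 in the exact permutation test and an adjusted p of 1 in limma. With median centring in place of quantile normalization Eif3c overlapped, and Eif3b and Eif2b1 did not.

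Eif3i, a subunit that docks on eIF3b, had the most negative difference of the complex, most of which came from a single array. It was 8.28, 7.27 and 7.21 in WT and 7.08, 7.53, 4.82 and 6.94 in KO, where KO replicate 3 was far below the rest. The difference was -0.99 ± 0.65 (SE) and -0.40 without that array. Eif3h, a regulatory subunit, differed by -0.50 and by -0.19 without KO replicate 3. The remaining subunits (Eif3d, Eif3e, Eif3f, Eif3k, Eif3l, Eif3m and Eif3j2) differed by -0.26 to 0.50. Eif3j2 has a near-identical copy in the mouse genome, so its signal may hold both.

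Of 11 genes of cap binding and the eIF4 factors, KO had the higher mean in 8 and the lower in 3, and the median difference was 0.18. Eif4h, which stimulates the helicase eIF4A, was 9.14, 8.72 and 9.95 in WT and 9.73, 10.08, 10.93 and 9.73 in KO. All KO arrays were above WT replicates 1 and 2, and only WT replicate 3 reached into their range. The difference was 0.84 ± 0.41 (SE), or 1.80-fold, with p = 0.171 in the exact permutation test. Without WT replicate 3 it was 1.18, with an unadjusted p of 0.023. Eif4b, the other helper of the helicase, was 9.09, 9.88 and 9.81 in WT and 9.65, 9.79, 10.49 and 9.16 in KO, a difference of 0.18 (interval -0.66 to 1.02) in which the groups overlapped. The helicase gene Eif4a1 was 12.85, 12.95 and 13.70 in WT and 12.51, 13.75, 13.01 and 15.37 in KO. Its difference of 0.49 came from KO replicate 4 and was -0.08 without it.

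WT and KO arrays carry the same replicate numbers, and arrays of equal number correlated weakly in their deviations from group means (r = 0.16 to 0.243, processing below). No source says what equal numbers share, so the blocked p-values in limma depend on taking them as pairs. KO was above WT in all 3 numbered pairs for 13 of the 59 genes, or 22%, and below in 3, or 5.08%, where all transcript clusters gave 12.2% and 12.3%. Eif4h differed by 0.58, 1.36 and 0.97 in pairs 1 to 3, and Eif3b by 0.44, 0.87 and 0.89. These were the 2 genes with an unadjusted p below 0.05 when the replicate number was a block in limma (Eif4h 0.0144, Eif3b 0.0286). This was 3.39% of the genes, against 2.61% of all transcript clusters, and neither passed adjustment. KO replicate 4 has no WT partner and does not enter the blocked difference. Both genes were also below 0.05 with the acinar score as a covariate (Eif4h 0.0241, Eif3b 0.0471), which 2.3% of all transcript clusters were. They are described here because of these values and not by the rule for named genes.

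eIF4E binds the cap and is the point on which the 4E-BPs act. Eif4e was 10.37, 10.27 and 8.84 in WT and 10.04, 10.66, 10.12 and 9.89 in KO. WT replicate 3 was the low array, the others lay close together, and the difference of 0.35 (interval -0.61 to 1.31) was -0.14 without it. Among its relatives, Eif4e2, a repressive cap-binding protein, differed by 0.41 and Eif4e3 by -0.18. The scaffold genes Eif4g2 and Eif4g3 differed by -0.31 and -0.06. Eif4a3, a helicase of the exon junction complex, differed by 0.25, and its close relative Eif4a3l1 by 0.04.

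Eif4ebp1 encodes 4E-BP1, which holds back eIF4E until mTORC1 phosphorylates it. It was 5.65, 5.75 and 5.75 in WT and 5.04, 5.64, 3.92 and 7.11 in KO. The WT arrays lay close together, and the KO arrays spread on either side of them, lowest on KO replicate 3 and highest on KO replicate 4. WT was 5.72 ± 0.06 and KO 5.43 ± 1.3, and the difference of -0.29 had an interval from -1.84 to 1.26. Without KO replicate 4, in which Rptor was also highest, it was -0.85, with no overlap (as in 7.88% of all transcript clusters) and an unadjusted p of 0.0934. Without KO replicate 3, in which Rptor was lowest (4.40), it was 0.21. In the numbered pairs KO minus WT was -0.62, -0.11 and -1.83. The paralog Eif4ebp2, the main form in brain, was 9.65, 9.10 and 9.71 in WT and 9.91, 9.47, 8.41 and 10.81 in KO. It had the same low and high KO arrays, and a difference of 0.16 (interval -1.07 to 1.39). Eif4enif1, which carries eIF4E into the nucleus and into P-bodies, differed by 0.49.

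Over the 7 arrays the genes whose signal was most like that of Eif4ebp1 were Eif4ebp2 (Pearson r = 0.852), Eef1b2 (0.826) and Eif4g2 (0.804). These values describe 7 arrays that share 1 normalization, and KO replicate 3 was the lowest and KO replicate 4 the highest array for each of these 4 genes.

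**Figure D2:**
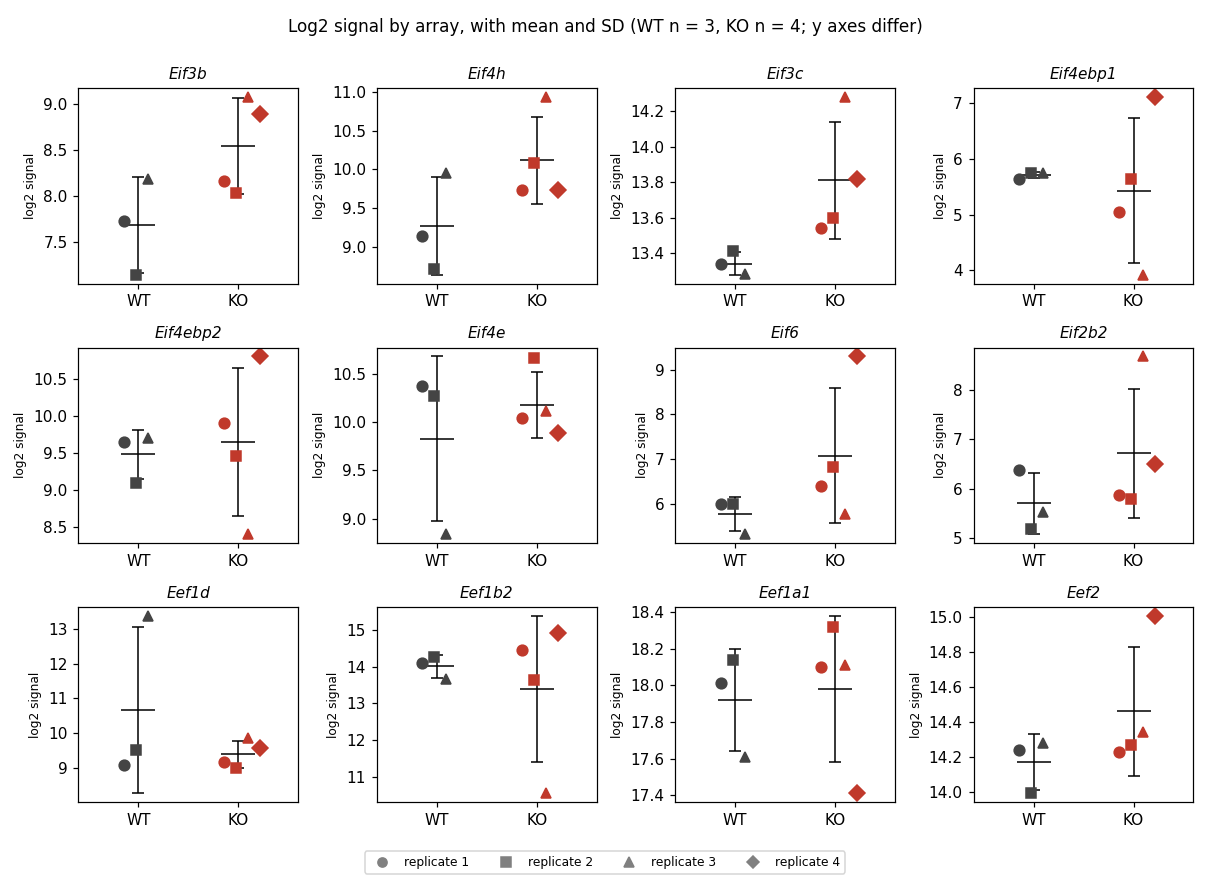
Log2 signal of 12 of the genes on each array, WT in grey and KO in red, with a marker shape for each replicate number; horizontal bars are means and whiskers SD (WT n = 3, KO n = 4). KO arrays lie above all WT arrays only for Eif3c, and single arrays stand far from the rest for Eef1d (13.38 on WT replicate 3), Eef1b2 (10.55 on KO replicate 3) and Eif6 (9.29 on KO replicate 4).

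The genes that deliver the initiator tRNA had the higher mean in KO in 7 of 8 cases, with a median difference of 0.53, and none had an unadjusted p below 0.05. Eif2s2 encodes the β subunit of eIF2 and differed by 0.64, from 16.11 ± 0.69 in WT to 16.74 ± 0.63 in KO. Its difference was 0.25 without WT replicate 3 and 0.02 on WT and KO replicates 1 and 2 alone. Eif2b1 to Eif2b5 encode the exchange factor eIF2B, which reloads eIF2 with GTP and is blocked when eIF2 is phosphorylated. Eif2b3 was 6.24, 5.98 and 4.25 in WT and 7.07, 5.20, 7.25 and 6.84 in KO. WT replicate 3 was lowest, and only KO replicate 2 fell within the WT range. Its difference was 1.10 ± 0.65 (SE), or 2.15-fold, and 0.48 without WT replicate 3. On WT and KO replicates 1 and 2 alone it was 0.02, and with array weights 0.40. Without KO replicate 2 it was 1.57, with no overlap (as in 8.66% of all transcript clusters) and an unadjusted p of 0.0254.

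Eif2b2 was 6.38, 5.19 and 5.52 in WT and 5.88, 5.79, 8.67 and 6.50 in KO. KO replicate 3 stood apart, and the difference of 1.01 ± 0.71 (SE) was 0.36 without it. On WT and KO replicates 1 and 2 alone it was 0.05, and with array weights 0.54. Eif2b1 was 6.25, 6.45 and 6.79 in WT and 6.73, 6.68, 6.85 and 8.96 in KO. Here KO replicate 4 was the high array, and the difference of 0.80 became 0.25 without it. Eif2b4 was highest on KO replicate 3 (8.26), and its difference turned from 0.24 to -0.31 without that array. Eif2b5, the catalytic subunit, differed by -0.45. KO replicate 3 was the highest array for Eif2b2, Eif2b3 and Eif2b4, KO replicate 4 for Eif2b1 and KO replicate 1 for Eif2b5. Over the 8 genes of initiator tRNA delivery the mean deviation from their 7-array means was 0.81 on KO replicate 3 and 0.29 on KO replicate 4. It was -0.02 and -0.25 on KO replicates 1 and 2, and -0.19, -0.28 and -0.36 in WT. Eif2a and Eif2d, which can bring tRNA to the ribosome without eIF2, differed by 0.43 and 0.08. The difference of Eif2a was 0.01 without KO replicate 3.

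Each of the 4 kinases that phosphorylate eIF2 responds to its own stress, and the KO mean was the higher for 2 of them and the lower for 2. Eif2ak3, which encodes PERK of the endoplasmic reticulum, was 8.57, 9.69 and 9.46 in WT and 8.33, 9.37, 8.69 and 9.28 in KO. KO was lower in each numbered pair, with differences of -0.24, -0.32 and -0.77, yet the groups overlapped and the mean difference was -0.32 (interval -1.20 to 0.55). Eif2ak4, which encodes the amino acid sensor GCN2, was 7.70, 7.40 and 8.34 in WT and 7.46, 8.35, 8.21 and 8.40 in KO, a difference of 0.29 with overlap. Eif2ak1, the haem-regulated kinase, was 8.28, 7.96 and 7.59 in WT and 7.91, 8.30, 7.11 and 6.58 in KO. Its difference of -0.47 became -0.17 without KO replicate 4, the lowest array. Eif2ak2, the kinase activated by viral RNA, was 6.74, 6.64 and 5.46 in WT and 7.14, 5.44, 6.50 and 7.51 in KO, and differed by 0.37 (interval -0.91 to 1.65).

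Among the genes with symbols that begin with Eif1, Eif1a differed by 0.76, Eif1ad by 0.36, Eif1ax by -0.04 and Eif1b, a paralog of eIF1, by -0.47. The value of Eif1a was 0.17 without WT replicate 3. Eif6 encodes the factor that keeps the large ribosomal subunit from joining too early. It was 6.00, 6.00 and 5.34 in WT and 6.41, 6.83, 5.79 and 9.29 in KO. KO replicate 4 was by far the highest, and KO replicate 3 the only KO array below WT replicates 1 and 2. The difference, at 1.30 ± 0.77 (SE), was the most positive among the 59 genes and was 0.56 without KO replicate 4. KO was the higher in each of the 3 pairs, by 0.41, 0.83 and 0.45. Eif5b, which joins the subunits, differed by 0.15 (interval -0.46 to 0.77).

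eEF1A carries aminoacyl-tRNA to the ribosome, and Eef1a1 was bright on every array. It was 18.01, 18.14 and 17.61 in WT and 18.10, 18.32, 18.11 and 17.41 in KO, a narrow range in which WT replicate 3 and KO replicate 4 were lowest. The difference of 0.07 had an interval from -0.59 to 0.72. Processed copies of Eef1a1 are common in mammalian genomes and may add to its signal. Eef1a2, the form of neurons and muscle, was 5.04, 4.97 and 5.79 in WT and 5.52, 5.40, 4.52 and 5.04 in KO, a difference of -0.15 with overlap. Eef2, which moves the ribosome along the mRNA, was 14.24, 13.99 and 14.28 in WT and 14.23, 14.27, 14.34 and 15.01 in KO. All but KO replicate 4 lay close together, and the difference of 0.29 was 0.10 without it. Eef2k, the kinase that inhibits eEF2, was 6.69, 6.59 and 6.46 in WT and 6.17, 6.93, 6.61 and 6.97 in KO, and differed by 0.09 (interval -0.50 to 0.68).

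The exchange complex of eEF1A, made of the products of Eef1b2, Eef1d and Eef1g, varied widely between arrays. Eef1d was 9.09, 9.50 and 13.38 in WT and 9.15, 9.00, 9.85 and 9.57 in KO. A single array, WT replicate 3, set its difference of -1.27 ± 0.97 (SE), which was 0.09 without it. Eef1b2 was 14.09, 14.27 and 13.66 in WT and 14.45, 13.64, 10.55 and 14.92 in KO. KO replicate 3 was far below all others, and the difference of -0.61 turned to 0.33 without it. Eef1g was 11.99, 11.50 and 14.24 in WT and 12.04, 12.46, 11.57 and 13.88 in KO. It was high on 1 array of each group, so that its difference was only -0.09 (interval -1.88 to 1.71).

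Eif5a, whose product carries the modified residue hypusine and helps ribosomes past difficult stretches, had the same high arrays. It was 11.64, 12.20 and 13.02 in WT and 12.27, 12.06, 11.87 and 13.33 in KO, a difference of 0.09. Its paralog Eif5a2 was 6.82, 6.22 and 6.47 in WT and 7.07, 7.01, 5.99 and 6.65 in KO, a difference of 0.18 with overlap. WT replicate 3 and KO replicate 4, on which Eef1g and Eif5a were high and Eef1a1 low, also had the highest mean signal of 6 mesenchyme markers. That mean was 5.09, 5.36 and 6.72 in WT and 4.83, 5.33, 5.63 and 6.59 in KO. The 6 markers did not move as one. Dcn (decorin) and Col1a2 were highest on WT replicate 3, at 10.15 against 4.92 to 6.39 elsewhere and at 6.96 against 4.42 to 5.45. Lum (lumican), Col3a1 and Col1a1 were highest on KO replicate 4, at 8.46 against 4.34 to 5.63, 7.24 against 3.72 to 5.89 and 7.41 against 6.13 to 7.22. Pdgfrb was highest on KO replicate 3 (5.32) and lowest on KO replicate 4 (4.66). Acinar markers were lowest on the first of these arrays (7.20) and highest on the second (15.27). In such bulk samples a change in the share of cells and one in RNA per cell cannot be told apart, and the part of mesenchymal RNA, or of whatever made the Y-linked signal low on both arrays, in these values was not tested. Without both arrays the difference was 0.28 for Eef1g, 0.14 for Eif5a and 0.10 for Eef1a1.

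**Figure D3:**
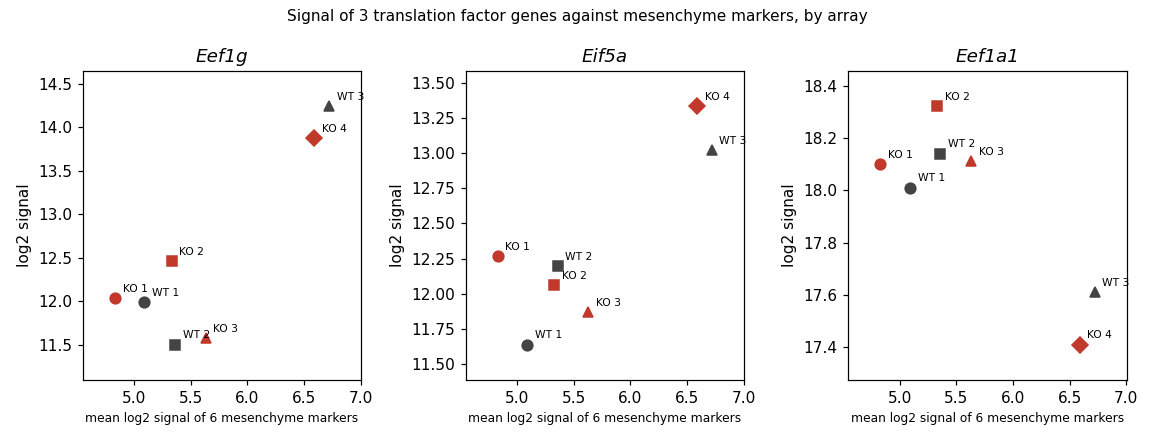
Log2 signal of Eef1g, Eif5a and Eef1a1 (vertical axes) against the mean log2 signal of 6 mesenchyme markers (horizontal axes), a point for each of the 7 arrays. WT replicate 3 and KO replicate 4, with marker means of 6.72 and 6.59, lie apart from the other 5 arrays in all 3 panels, high for Eef1g and Eif5a and low for Eef1a1. The 3 genes are among those that correlated most strongly with this mean, so the panels are no test of a link.

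Of the 5 methyltransferases that modify elongation factors, Eef1akmt2 differed by 0.95, Eef1aknmt by 0.55, Eef2kmt by 0.20, Eef1akmt3 by -0.42 and Eef1akmt1 by -0.49. The first of these values was 0.38 without KO replicate 4, and that of Eef1akmt3 was -0.07 without WT replicate 3. Eef1e1, a member of the multisynthetase complex, differed by 0.18.

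Single arrays were left out in turn for every gene. The array whose removal shifted the difference most was WT replicate 3 for 19 genes, KO replicate 3 for 15 and KO replicate 4 for 11, so 1 of these 3 arrays had the most influence in 45 of the 59, or 76.3%, against 62.5% of all transcript clusters. Of the 59 genes 17 had their highest value on KO replicate 3 and 17 on KO replicate 4. Over all transcript clusters these shares were 22% and 19.6%. The sign of the difference changed in 27 genes when some 1 array was left out and stayed in 32. This was 45.8% of the genes, against 51.7% of all transcript clusters. The mean deviation of the 59 genes from their own 7-array means was -0.10, -0.12 and -0.03 in WT and 0.03, -0.03, 0.04 and 0.21 in KO, so that KO replicate 4 stood highest and the first 2 WT arrays lowest.

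**Figure D4:**
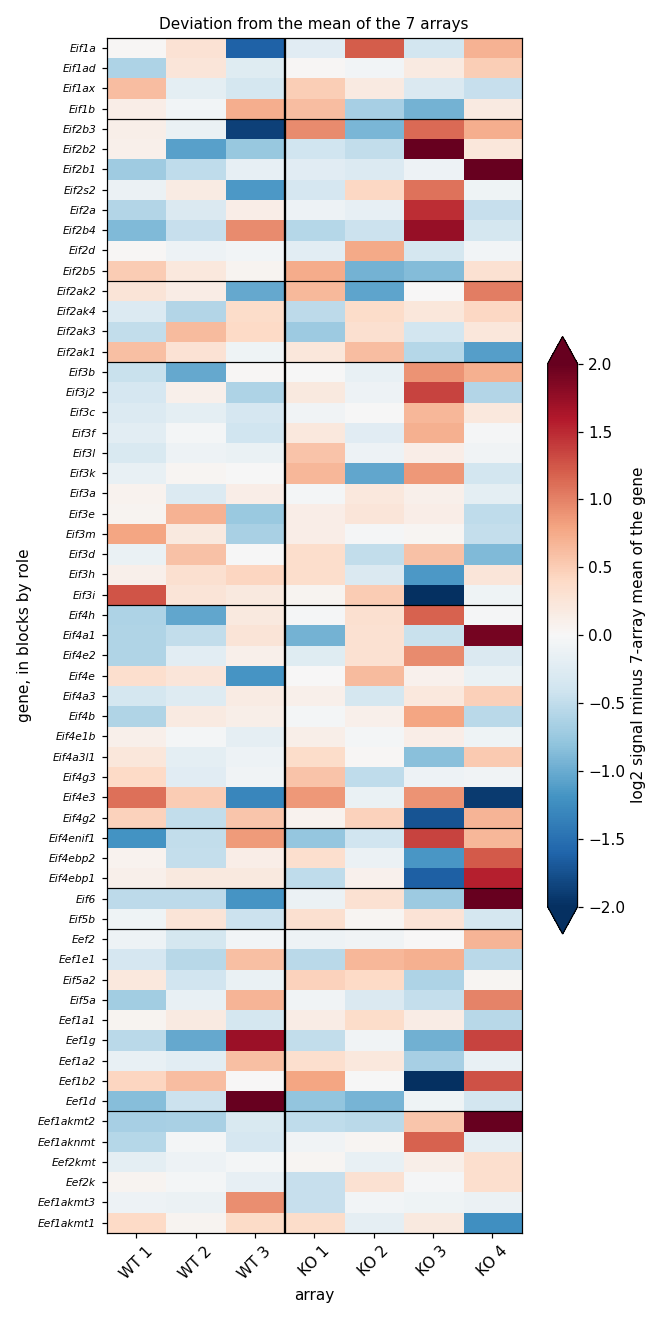
Log2 signal of each of the 59 genes minus its mean over the 7 arrays, with arrays in columns (WT left of the line, KO right) and genes in blocks by role; colours saturate at 2 in either direction. The strongest colours lie on WT replicate 3, KO replicate 3 and KO replicate 4, the arrays that moved 45 of the 59 differences most.

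Other genes of translation and its control were examined through lists. Of 36 genes in 5 lists (the path from mTORC1 to translation, cap and poly(A) factors, the eIF2 phosphatase and its response, start and release factors, and modifiers of eIF5A and eEF2) 32 were measured. None had an unadjusted p below 0.05 in limma in either direction, where 2.18% of all transcript clusters did, so few or none would be reached at that share. The KO mean was the higher for 22 and the lower for 10, against 50.4% and 49.6% of all transcript clusters. The median difference was 0.14, and the shift was not tested. Atf4, the transcription factor made when eIF2 is phosphorylated, was 14.53, 14.32 and 15.31 in WT and 14.42, 16.02, 13.81 and 17.00 in KO, and the groups overlapped. The kinase gene Mtor was 5.86, 4.61 and 7.34 in WT and 5.42, 4.55, 4.12 and 4.30 in KO, a difference of -1.35 with an unadjusted p of 0.0674. The groups overlapped, and WT replicate 3 was the highest array. The release factor gene Gspt1 differed by -1.60 (interval -3.66 to 0.46). Mknk2 differed by 0.58 (interval -0.09 to 1.26), with KO above WT without overlap, as in 1.98% of all transcript clusters. Mtor, Gspt1 and Mknk2 were named after their values were seen.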

How the data were processed

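Sorted β-cell RNA was measured on 7 Affymetrix Clariom S arrays. The authors deposited 1 log2 value per transcript cluster and array. Per the submitters' processing notes the tools were MAS5 and Affymetrix Expression Console, while the methods mention GeneSpring. The background correction and summarisation are not given in the sources used here, nor were detection calls used, so dim genes were kept. Array medians (5.52 to 5.66) differed by more than 0.1, and values were quantile normalized. KO and WT were compared over 22198 transcript clusters in limma 3.58.1 (R 4.3.3; lmFit and eBayes, two-sided) with Benjamini-Hochberg adjustment. The fit was tested on simulated data. Alternatives were other normalizations, filters on dim transcript clusters, variance models, array weights, the methods' t-test, the replicate block, an acinar covariate, 4 arrays alone and leaving out each array. Single genes also had an exact two-sided permutation test over 35 divisions of the arrays, whose smallest p is 0.0286. The number of arrays limits the precision, and p-values measure the spread between pools.

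Genes given with all values were those without overlap, those with an unadjusted p below 0.05, a list of mTORC1-linked factors, eIF2 kinases and paralogs, and the 3 largest differences in each direction. Eif4ebp3 and Eif4g1 belonged to that list and were not analysed here, because the array annotation used named no transcript cluster for them. Members and lists were chosen with earlier results of these data known. Eif3b, Eif4h and further genes were added after their values were seen.

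Deviations from group means correlated at 0.16, 0.243 and 0.165 between arrays of equal replicate number, and at -0.181 to 0.0233 otherwise. All 3 exceed the limit of 0.1 for pairing, though no source says what equal numbers share. The deviations of the 3 arrays used per group cancel out, so the values for equal and unequal numbers depend on each other. Promoter windows came from RefSeq, build GRCm38.p6.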

Additional observations from a re-analysis of the deposited data

Results flagged for a closer look

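Among the KO values of the 59 genes, 6 genes had 1 array far from the other 3. A nominal rate for normally spread values would give about 3. The share over all transcript clusters was not computed, so the count is no result about these genes. The measure is the gap to the nearest array as a share of the whole KO range. For Eif2b1 it was 0.924, where KO replicate 4 stood at 8.96 and the rest at 6.68 to 6.85. For Eif2b4 it was 0.901, where KO replicate 3 stood at 8.26 and the rest at 5.94 to 6.17. The gap was 0.854 in Eef2, at 15.01 on KO replicate 4 against 14.23 to 14.34, and 0.843 in Eef1akmt3, at 4.46 on KO replicate 1 against 4.80 to 4.87. Eef1aknmt (6.64 on KO replicate 3, at most 5.5 elsewhere) and Eif3e (10.26 on KO replicate 4, 10.90 to 11.02 elsewhere) each had a gap of 0.831. All but that of Eef1akmt3 lay on KO replicate 3 or 4, and WT groups of 3 arrays were not tested in this way.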

How the results depend on the processing

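No gene of the 59 passed an adjusted p of 0.05 under any alternative run. Genes with an unadjusted p below 0.05 numbered 0, against 1 with the values as deposited and with median centring (Eif3b), 2 with array weights, with the replicate block and with the acinar covariate (Eif3b and Eif4h), 1 on WT and KO replicates 1 and 2 alone and 1 on the 5 arrays other than WT replicate 3 and KO replicate 4 (Eif4h), and 0 to 2 with 1 array left out. These are 1.69% of the genes for 1 and 3.39% for 2, against 2.18% of all transcript clusters in the fit reported, 1.75% as deposited, 1.79% with median centring, 2.69% with weights, 2.61% with the block, 2.3% with the covariate, 2.22% on the 4 arrays, 1.62% on the 5 and 1.35% to 3.14% with 1 array left out. Without WT replicate 3 it was Eif3b and Eif4h, without KO replicate 2 Eif2b3 and Eif3b, and without KO replicate 1 Eif3b. Genes without overlap numbered 1, against 2 with deposited values or median centring, 12 on the 4 arrays alone, 8 on the 5 arrays and 1 to 6 with 1 array left out. Fewer arrays separate more readily: all transcript clusters gave 3.93%, 3.2%, 3.63%, 28.1%, 15.8% and 7.19% to 9.7%, and the genes 1.69%, 3.39%, 3.39%, 20.3%, 13.6% and 1.69% to 10.2%. Overlap was not computed with the block or the covariate. The median difference stayed above 0 throughout, at 0.09 to 0.19 with 1 array left out. Over all transcript clusters 484 had an unadjusted p below 0.05, 311 and 177 after leaving out those below percentile 25 or 50 of mean signal, which tests fewer of them, and 300 to 697 with 1 array left out.

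Among the 22 genes named by rule, signs turned in 33 of 438 refits. Median centring gave -0.01 for Eef1a1. Array weights gave 0.18 for Eef1a2 and -0.15 for Eif2ak2. The replicate block gave -0.01 for Eef2k, -0.08 for Eif4a1, -0.23 for Eif4ebp2 and -0.22 for Eif5a, and among the 59 genes it changed no call other than those of Eif3b and Eif4h. The 4 arrays alone gave 0.46 for Eef1a2, -0.09 for Eef2k and -0.39 for Eif2ak2. The 5 arrays gave 0.14 for Eef1a2, 0.03 for Eef1d, -0.07 for Eef2k, -0.33 for Eif2ak2, -0.04 for Eif4e and -0.12 for Eif4ebp2. With 1 array left out the ranges were -0.09 to 0.26 for Eef1a1, -0.29 to 0.12 for Eef1a2, -1.13 to 0.33 for Eef1b2, -2.05 to 0.09 for Eef1d, -0.01 to 0.26 for Eef2k, -0.04 to 0.77 for Eif2ak2, -0.08 to 0.87 for Eif4a1, -0.07 to 0.38 for Eif4b, -0.14 to 0.62 for Eif4e, -0.85 to 0.21 for Eif4ebp1, -0.23 to 0.57 for Eif4ebp2 and -0.23 to 0.46 for Eif5a. The cause was not tested.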
